A study of Homo sapiens with 4 samples.

Results

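The clustered protocadherins are cell surface proteins of the cadherin superfamily, encoded by 3 neighbouring gene arrays on chromosome 5 that are called the alpha (PCDHA), beta (PCDHB) and gamma (PCDHG) subclusters. The members described here were all protein-coding genes of the GENCODE 44 annotation whose symbol starts with PCDHA, PCDHB or PCDHG. There were 53 of them among 20033 protein-coding gene entries, 15 in the alpha, 16 in the beta and 22 in the gamma subcluster. They span 727 kb of the hg38 build, chr5:140786136-141512977, and all are read from the plus strand. The family was selected on earlier results of the H3K27ac peak lists used here, in which PCDHGC5 had stood out by a long stitched domain. The values below are therefore a description of the family, and none of them is a test.

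Chromatin immunoprecipitation and sequencing (ChIP-seq) was done in RD, a human line of fusion-negative rhabdomyosarcoma, a muscle-like tumour of childhood. Control cells carried a lentiviral hairpin without a target (shSCR) and knockdown cells a hairpin against SKP2 (shSKP2), the substrate-binding subunit of a ubiquitin ligase. All cells were of this 1 line and carried a hairpin vector. H3K27ac, an acetylated histone residue found at active promoters and enhancers, and MYOD, the transcription factor that specifies skeletal muscle, were each profiled in 1 control and 1 knockdown library. With 1 library per group, no difference between the arms has a replicate check and no p-value can be given for it. The files used here were lists of called peaks, from which the sequencing depth is unknown.

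In neurons each clustered protocadherin promoter is switched on or off in the individual cell, and the resulting set of proteins gives the cell an identity by which its branches recognise and avoid each other. An alpha or gamma transcript starts at its own variable exon, which carries its own promoter and encodes the ectodomain, and is spliced to 3 constant exons that encode a shared cytoplasmic end. Beta genes have a variable exon and no constant exons. The last genes of the alpha and gamma arrays, PCDHAC1, PCDHAC2, PCDHGC3, PCDHGC4 and PCDHGC5, are called C-type and are less subject to random choice than the others. CTCF and cohesin bring the promoters to distant enhancers, and most promoters share a conserved element with the core CGCT.

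The sequence around CGCT is shown here because CGCT is held both by promoters that carried H3K27ac and by neighbours that carried none. Promoter sequence was read from hg38 as 250 bases before and 50 bases from the transcription start site (TSS). CGCT lay within the last 100 bases before the TSS, on the sense strand, in 48 of the 53 members (90.6%) and in 7236 of all 20033 promoters (36.1%). The median position of its first base relative to the TSS was -56 bp, with medians of -47.5 bp in alpha, -63 bp in beta and -55.5 bp in gamma. Where a promoter held more than 1 CGCT, the one nearest a set distance before the TSS was taken. That distance was close to the median over all members, so the medians are drawn towards it by this choice. The stretches below are 40 bases long, 5′ to 3′ on the plus strand, with CGCT in capitals. In the alpha array PCDHA4, PCDHA6 and PCDHA11 had an H3K27ac peak in at least 1 list, and PCDHA5, between PCDHA4 and PCDHA6, had none.
PCDHA4: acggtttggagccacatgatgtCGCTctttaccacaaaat
PCDHA6: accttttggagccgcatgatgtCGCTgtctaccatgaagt
PCDHA11: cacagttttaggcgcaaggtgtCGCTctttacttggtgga
PCDHA5: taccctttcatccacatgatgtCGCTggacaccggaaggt
The PCDHA4 stretch is chr5:140806973-140807012, the PCDHA6 stretch chr5:140827891-140827930 and the PCDHA11 stretch chr5:140868877-140868916. The 8-base word ATGTCGCT, present in PCDHA4, PCDHA5 and PCDHA6, occurred on the sense strand of 10 member promoters, all in alpha, and of 37 promoters of all genes (0.185%). It and the words below were picked from the commonest in the members. In the beta array PCDHB2, PCDHB16 and PCDHB11 had a peak and PCDHB12, the next gene after PCDHB11, had none.
PCDHB2: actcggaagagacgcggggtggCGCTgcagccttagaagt
PCDHB16: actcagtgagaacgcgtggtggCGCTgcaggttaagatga
PCDHB11: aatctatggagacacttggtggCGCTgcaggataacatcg
PCDHB12: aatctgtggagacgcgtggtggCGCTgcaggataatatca
The beta stretches shown read ggtggCGCT. The pattern GGNGGCGCT, searched on both strands, occurred in 14 of the 16 beta promoters, in 0 of the 15 alpha and 0 of the 22 gamma promoters, and in 5.19% of all promoters. It includes CGCT. Of the 14, the promoters of PCDHB2, PCDHB16 and PCDHB11 had an H3K27ac peak and 11 had none, so the pattern does not separate them. In the gamma array, PCDHGA2 and PCDHGA9 stand for the variable genes without a peak, and they are set beside the C-type genes of alpha and gamma with CGCT in this window. The presence of these 4 letters does not show that a stretch is the conserved element.
PCDHGA2: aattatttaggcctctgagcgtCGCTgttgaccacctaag
PCDHGA9: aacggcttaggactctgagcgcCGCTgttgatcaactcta
PCDHAC1: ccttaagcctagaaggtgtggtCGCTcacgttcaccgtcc
PCDHAC2: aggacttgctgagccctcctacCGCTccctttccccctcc
PCDHGC3: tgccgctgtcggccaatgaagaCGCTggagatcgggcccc
PCDHGC4: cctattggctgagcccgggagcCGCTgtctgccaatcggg
PCDHAC1, PCDHAC2 and PCDHGC3 had a peak and PCDHGC4 had none. PCDHGC5, which had a peak, held no CGCT in its last 100 bases. Some words around CGCT were found in 1 array and others were shared. GTCGCTGT, seen in PCDHA6 and PCDHGA2, occurred in 6 alpha and 6 gamma promoters and in 0.439% of all promoters, on the sense strand. GCCGCTGT, seen in PCDHGA9 and PCDHGC4, occurred on the sense strand of 12 member promoters, all in gamma, and of 1.17% of all promoters.

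A promoter was counted as acetylated where a peak overlapped the 2 kb on either side of the TSS of the canonical transcript by 1 bp or more. H3K27ac was called at 8 of 53 member promoters (15.1%, 95% Wilson interval 7.85 to 27.1%) in the control list and at 9 (17%, 9.2 to 29.2%) in the knockdown list. Over all protein-coding genes the same count gave 41.5% in the control list and 51.3% in the knockdown list, and the intervals of the members lay below both. These intervals cover counting error only, and neighbouring members share sequence and location. H3K27ac was thus called at a smaller share of the clustered protocadherins than of all genes in each arm. Under each alternative choice of peaks, window and TSS the members' count stayed between 5 and 9 in either list.

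The promoters of 7 genes were called in both lists: PCDHA4, PCDHA6 and PCDHAC1 in alpha, PCDHB2, PCDHB16 and PCDHB11 in beta, and PCDHGC3 in gamma. PCDHA11 and PCDHGC5 were called in the knockdown list alone, which is 2 of 53 members (3.77%) against 10.7% of all protein-coding genes. Neither was called with peaks of a −log10 p of at least 10 or with lists of equal length. PCDHAC2 was called in the control list alone, which is 1 of 53 (1.89%) against 0.804% of all genes. The other 43 members had no peak at the promoter in either list. By subcluster the counts in control and knockdown were 4 and 4 of 15 in alpha, 3 and 3 of 16 in beta, and 1 and 2 of 22 in gamma. The intervals were wide and overlapped. They were, for the control, 10.9 to 52% for alpha, 6.59 to 43% for beta and 0.807 to 21.8% for gamma. No order of the subclusters can be read from these counts.

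**Figure D1:**
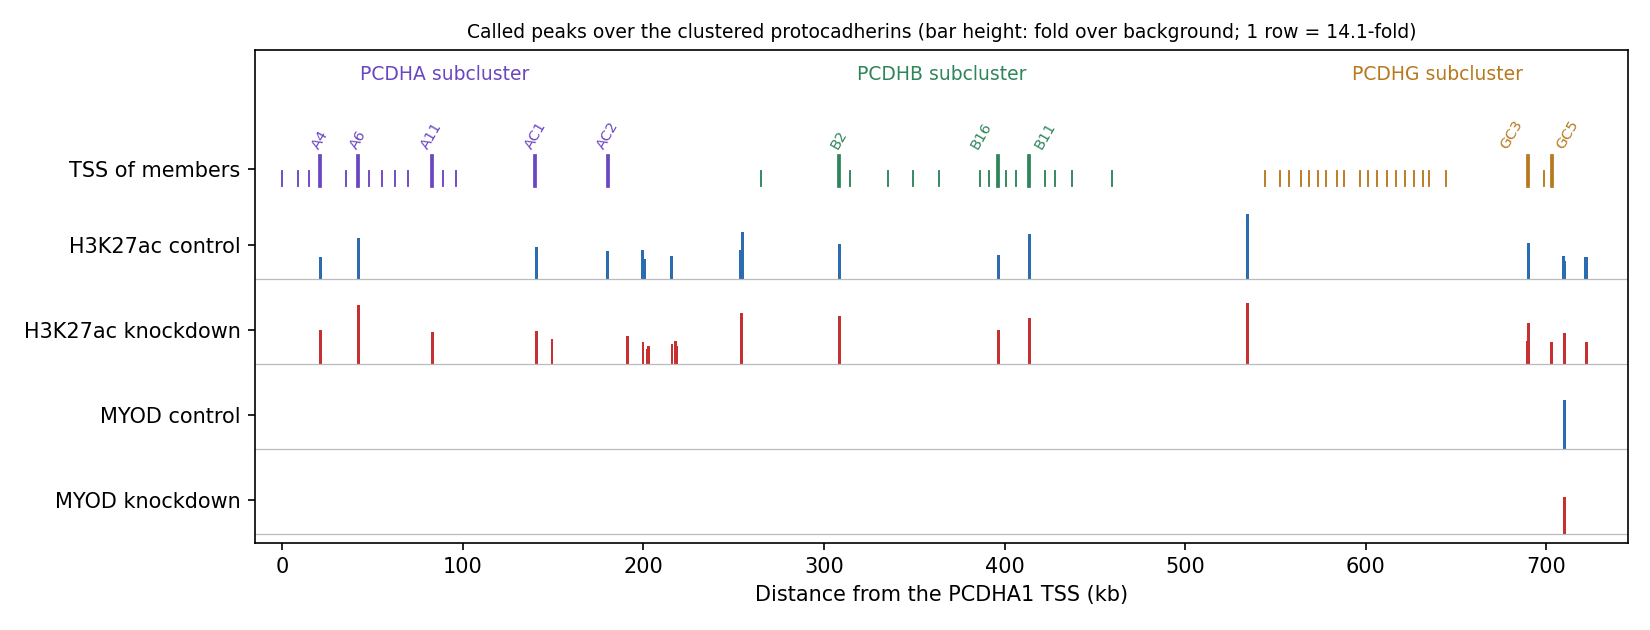
Called peaks over the cluster, placed by distance from the PCDHA1 TSS in kb (horizontal axis), with 1 row per library and bar height giving the fold over local background; ticks at the top mark the 53 start sites, and the 10 long named ticks are the members with an H3K27ac peak at the promoter in at least 1 list. Narrow peaks are drawn at a minimum width so that they can be seen. Both H3K27ac rows are empty over the variable genes of gamma, and the MYOD peak of each list stands after PCDHGC5.

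All promoter peaks began or ended within 442 bp of the TSS, and the nearest peak to any uncalled member lay 4415 bp away in the control list (PCDHB9) and 3780 bp away in the knockdown list (PCDHGC4). The counts were the same with windows of 500 bp and of 2 kb on each side. Of the 8 promoter peaks of the control list 7 had their summit after the TSS, 127 to 691 bp into the variable exon. Of the 10 in the knockdown list 8 did so, at 129 to 571 bp. The peaks with a summit before the TSS were those of PCDHAC2 (-277 bp), PCDHGC5 (-174 bp) and the smaller of the pair at PCDHGC3 in the knockdown list (-298 bp).

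H3K27ac was called at 3 of the 5 C-type promoters in each list (60%, 23.1 to 88.2%), compared with 5 of the 48 other members in the control list (10.4%, 4.53 to 22.2%) and 6 of 48 in the knockdown list (12.5%, 5.86 to 24.7%). The knockdown count of the C-type genes includes PCDHGC5, whose domain entered the choice of the family, so nothing is read from it. With peaks of a −log10 p of at least 10 or with lists of equal length PCDHGC5 dropped out and 2 of 5 C-type genes were called in the knockdown list, beside 3 and 5 of the 48 others. The control count of the C-type genes was 3 under both choices, beside 3 and 5 of the others. The C-type promoters also differed in base composition. Their GC share ran from 55.7 to 66%, and that of the 48 others from 32.3 to 50%, with no overlap. Within either class GC share did not separate the members with a peak in a list from those without. PCDHGC4, without a peak, had 60.7%, inside the range of 55.7 to 66% of the 4 C-type genes with one, and among the others the medians were 38.8% in the 6 with a peak and 38.5% in the 42 without.

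Among the C-type genes of alpha, PCDHAC1 was called in both lists and PCDHAC2 in the control alone. At PCDHAC1 (ENSG00000248383.5) the control peak, chr5:140926741-140927056, was 316 bp wide with a fold of 5.38 over local background and a −log10 p of 10.1. The knockdown peak at PCDHAC1, chr5:140926720-140927244, was 525 bp wide with a fold of 5.53 and a −log10 p of 11.5. The PCDHAC1 peak was wider in the knockdown list at nearly the same fold. At PCDHAC2 (ENSG00000243232.6) the control peak, chr5:140965839-140966366, was 528 bp wide with a fold of 4.74, a −log10 p of 11.5 and a pileup of 25 reads over a background of 4.48. The nearest knockdown peak to the PCDHAC2 TSS was 10897 bp away. PCDHAC2 stayed in the control list alone under all alternatives that were run. Among all protein-coding genes, 161 shared this pattern.

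Among the C-type genes of gamma, PCDHGC3 carried the strongest promoter peak in the control list by −log10 p, and PCDHGC4 was called in neither list. At PCDHGC3 (ENSG00000240184.7) the control peak, chr5:141476012-141476499, was 488 bp wide with a fold of 6.08 and a −log10 p of 16.2. In the knockdown list a peak of 903 bp, chr5:141476006-141476908, had a fold of 6.93 and a −log10 p of 22.3. A further peak of 293 bp, chr5:141475451-141475743, lay on the other side of the TSS with a fold of 3.92 and a −log10 p of 8.34. Together the knockdown peaks covered 1196 bp of the PCDHGC3 promoter, and the control peak covered 488 bp, a difference of 708 bp. With peaks of a −log10 p of at least 10 or with lists of equal length this difference was 415 bp. At PCDHGC5 (ENSG00000240764.4) the knockdown peak, chr5:141488810-141489036, was 227 bp wide with a fold of 3.64 and a −log10 p of 5.26. Its pileup was 11 reads over a background of 2.3, and 96% of the knockdown list ranked above it. The nearest control peak to the PCDHGC5 TSS was 6588 bp away. The PCDHGC5 call thus rested on a peak near the threshold.

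Outside the C-type genes PCDHA6 had the highest promoter fold in the knockdown list and PCDHB11 in the control list. At PCDHA6 the control peak, chr5:140828094-140828515, had a fold of 6.91, a −log10 p of 13.2 and a pileup of 18, and the knockdown peak, chr5:140827988-140828485, a fold of 9.8, a −log10 p of 24.4 and a pileup of 30. The PCDHA6 peaks lay in its coding exon. At PCDHB2 the control peak, chr5:141094660-141095246, had a fold of 5.82 and a −log10 p of 10.1, and the knockdown peak, chr5:141094632-141095289, a fold of 8.05 and a −log10 p of 20. At PCDHB11 the values were close. The control peak, chr5:141199651-141200009, had a fold of 7.52, a −log10 p of 15.1 and a pileup of 20. The knockdown peak, chr5:141199639-141200077, had a fold of 7.66, a −log10 p of 14.9 and a pileup of 19. No size of difference between libraries can be set against a replicate spread here.

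PCDHA4 and PCDHB16 stood near the bottom of the control list, and PCDHA11 was absent from it. PCDHA4 had a control peak of 195 bp with a fold of 3.64, a −log10 p of 4.82 and a pileup of 9, and 97.6% of the control list ranked above it. Its knockdown peak, chr5:140807139-140807392, was 254 bp wide with a fold of 5.75, a −log10 p of 9.67 and a pileup of 14. PCDHB16 went from a pileup of 10 and a fold of 4 in the control peak of 294 bp to a pileup of 14 and a fold of 5.75 in the knockdown peak, chr5:141182415-141182726. The PCDHA11 peak of the knockdown list, chr5:140869094-140869309, had a fold of 5.36, a −log10 p of 8.69 and a pileup of 13. All but PCDHB11 and PCDHA6 of the control peaks at non-C-type promoters had a −log10 p of 10.1 or lower. Local background at the non-C-type promoters was 1.75 to 1.79 reads in the control list, where the lowest value of the list is 1.75, and 1.61 to 2.6 in the knockdown list, where the lowest is 1.61.

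In all 7 promoters called in both lists the covered sequence was longer in the knockdown list. The covered length in control and knockdown was 195 and 254 bp at PCDHA4, 422 and 498 bp at PCDHA6, 316 and 525 bp at PCDHAC1 and 587 and 658 bp at PCDHB2. It was 294 and 312 bp at PCDHB16, 359 and 439 bp at PCDHB11 and 488 and 1196 bp at PCDHGC3. The median difference was 76 bp, compared with 385 bp over all protein-coding promoters called in both lists, of which 7391 of 8151 were longer in the knockdown list. Longer cover was therefore a feature of the knockdown list as a whole, and the differences at PCDHB16 (18 bp) and PCDHA4 (59 bp) were small beside it.

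**Figure D2:**
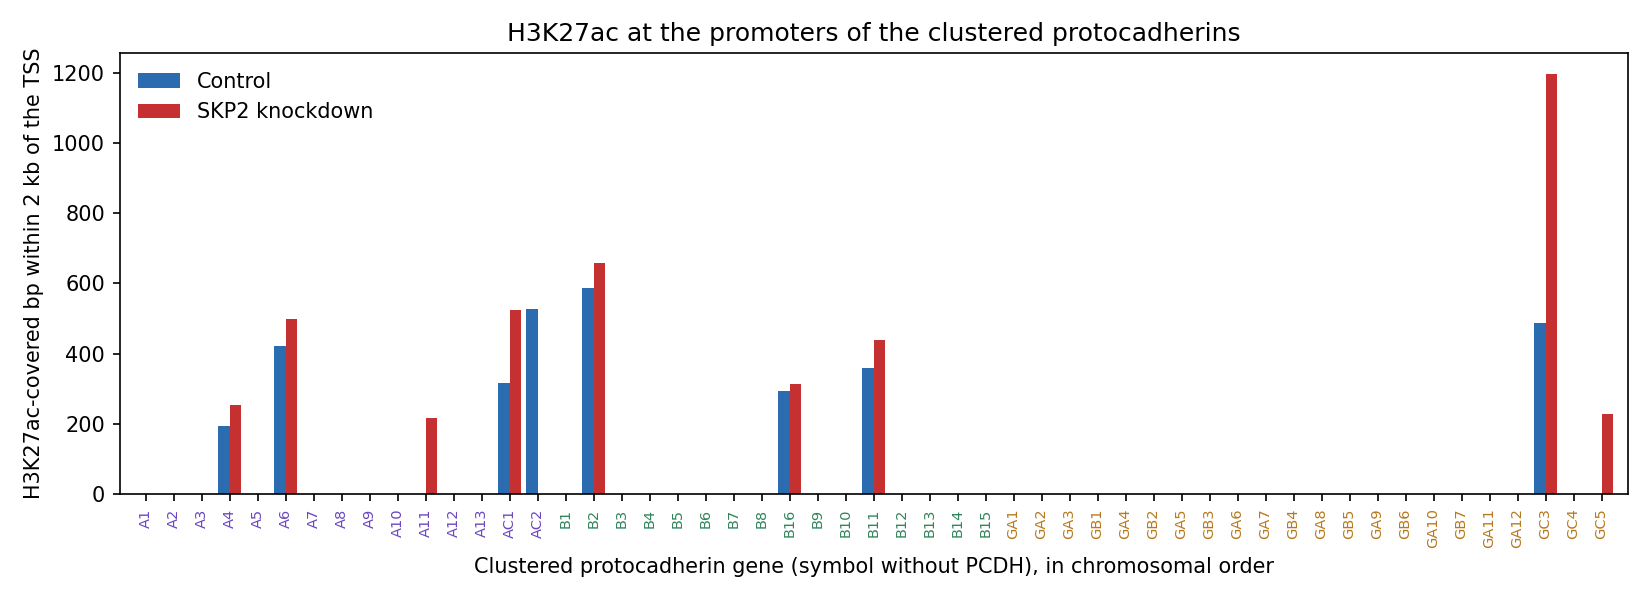
Base pairs within 2 kb of the TSS covered by H3K27ac peaks (vertical axis) for the 53 members in chromosomal order (horizontal axis, symbols without PCDH), with control in blue and SKP2 knockdown in red, 1 library each. The bars of 43 members are at 0, and PCDHGC3 has the tallest bar, 1196 bp in the knockdown list.

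Over the whole cluster, 18 H3K27ac peaks covered 8.8 kb in the control list and 22 peaks covered 12.5 kb in the knockdown list, a ratio of 1.43. The ratio was 2.05 over all chromosomes and 2.11 over chromosome 5. Alpha had 7 and 12 peaks, with 3.49 and 4.67 kb covered (ratio 1.34). Beta had 3 and 3 peaks, with 1.24 and 1.41 kb covered (ratio 1.14). Gamma had 5 and 5 peaks, with 2.01 and 3.87 kb covered (ratio 1.93). Cover was longer in the knockdown list in each subcluster, and the ratio was lower than that of the genome in each. For alpha this direction depended on the peaks used: the difference in cover, knockdown minus control, was 1.18 kb with the lists as deposited, -0.156 kb with peaks of a −log10 p of at least 10 and -0.975 kb with lists of equal length. For beta and gamma the knockdown list covered more under every such choice.

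Of the 18 control peaks in the cluster 15 overlapped a knockdown peak and 3 did not, and of the 22 knockdown peaks 13 overlapped a control peak and 9 did not. Over all chromosomes 13.6% of the control list and 48.6% of the knockdown list had no counterpart. The 3 control peaks without a counterpart were that of PCDHAC2, a peak of 523 bp in the intron between constant exons 2 and 3 of alpha, and a peak of 229 bp in the same intron of gamma. The intronic pair lay 249 and 269 bp from a knockdown peak. Of the 9 knockdown peaks without a counterpart 7 were in alpha, namely that of PCDHA11, an intronic peak 9304 bp after the PCDHAC1 TSS, a peak in the intron before constant exon 1, and 4 between constant exons 2 and 3. The other two were at PCDHGC3 and PCDHGC5. No knockdown peak of beta lacked a counterpart.

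The shared peaks formed 15 overlapping pairs. In 14 of them the knockdown peak was wider (93.3%, compared with 85.6% of 22046 pairs over all chromosomes). In 11 it had the higher fold (73.3% against 77.6%) and in 12 the higher −log10 p (80% against 85.7%). These shares were near those of all pairs. The pair that was narrower in the knockdown list lay between constant exons 2 and 3 of alpha, chr5:140985350-140986184 in the control (835 bp, fold 4.81, −log10 p 15.4) and chr5:140985700-140986218 in the knockdown (519 bp, fold 3.73, −log10 p 13.3). There the control pileup was 36 and the knockdown pileup 42, over backgrounds of 6.69 and 10.5.

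**Figure D3:**
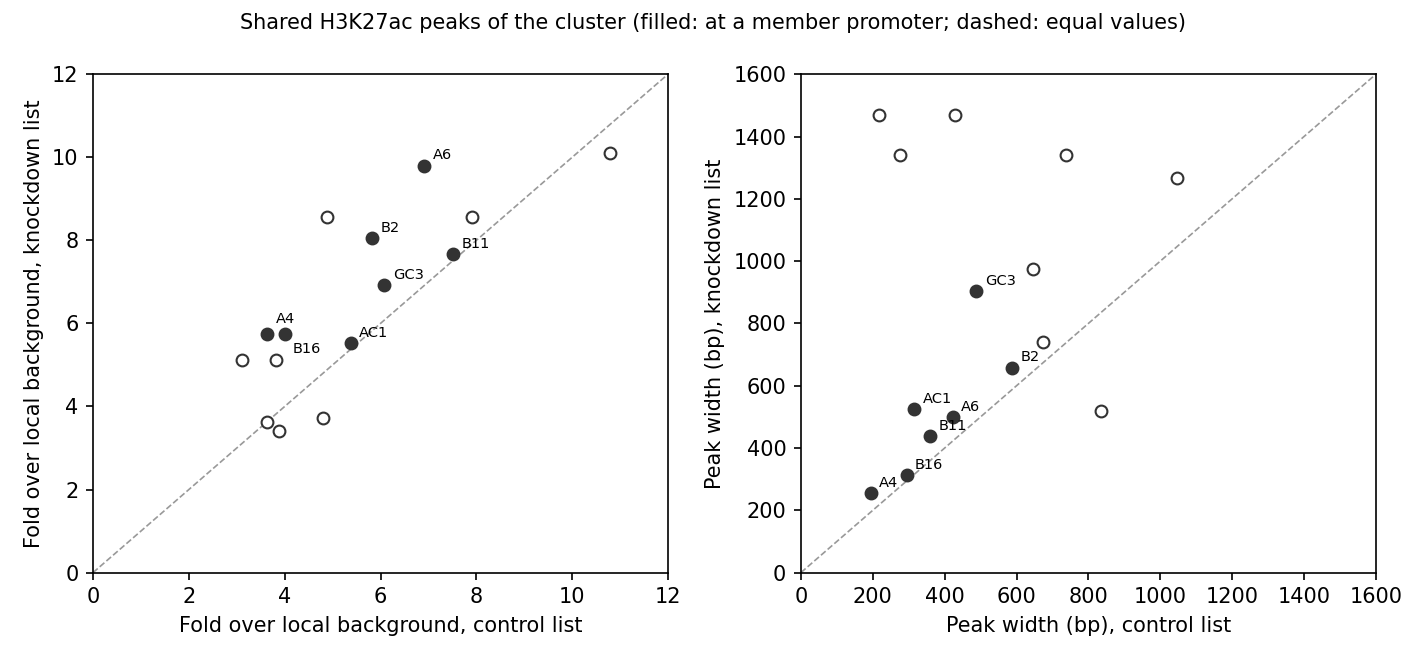
Fold over local background (left) and width in bp (right) of the 15 pairs of overlapping H3K27ac peaks in the cluster, control list on the horizontal and knockdown list on the vertical axis. Filled points are member promoters, open points are other peaks and the dashed line marks equal values; 14 of 15 pairs lie above the line in width and 11 of 15 in fold.

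The peaks with the largest −log10 p in the cluster were at no member promoter. The strongest in each list covered the promoter of TAF7, which encodes a subunit of the general transcription factor TFIID and lies between beta and gamma. It was 1046 bp wide with a fold of 10.8 and a −log10 p of 34.3 in the control list (chr5:141320378-141321423), and 1266 bp wide with a fold of 10.1 and a −log10 p of 44.2 in the knockdown list (chr5:141319997-141321262). The next lay in intergenic sequence between alpha and beta, beyond the alpha constant exons, where distant enhancers of the alpha genes are known. It consisted in the control of 2 peaks. The first, chr5:141039861-141040135, was 275 bp wide with a fold of 4.89 and a −log10 p of 10.2. The second, chr5:141040430-141041167, was 738 bp wide with a fold of 7.9 and a −log10 p of 22.2. In the knockdown list this place held 1 peak of 1340 bp, chr5:141039819-141041158, with a fold of 8.57 and a −log10 p of 30.2. Whether this peak is a known enhancer was not tested.

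The variable genes of gamma formed the longest stretch of the cluster without H3K27ac. No control peak lay in the 155 kb from TAF7 to PCDHGC3, and no knockdown peak in the 154 kb before the same gene. This stretch held the start sites of all 19 genes from PCDHGA1 to PCDHGA12. A further 120 kb, from PCDHB11 to TAF7, with the start sites of PCDHB12 to PCDHB15, had no peak in either list. Beta as a whole was covered to 0.626% in the control and 0.712% in the knockdown list, and its only peaks were those at the promoters of PCDHB2, PCDHB16 and PCDHB11. Chromosome 5 was covered to 0.269% and 0.568%, and the whole cluster to 1.21% and 1.73%. The cluster had 2.48 H3K27ac peaks per 100 kb in the control and 3.03 in the knockdown list. Chromosome 5 had 0.625 and 0.994. Per kb the cluster as a whole was thus denser in peaks than its chromosome in both lists. Its 18 control and 22 knockdown peaks include that of TAF7, and 8 and 10 of them were at member promoters. The density of start sites was not taken into account.

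Peaks also lay in the constant regions. The 7 control peaks between constant exons had a fold of 3.11 to 4.81 over backgrounds of 3.13 to 8.89 reads, and in the knockdown list 8 such peaks had a fold of 2.52 to 5.13 over backgrounds of 4.73 to 10.9. At the non-C-type promoters the fold was 3.64 to 7.52 in the control and 5.36 to 9.8 in the knockdown list, and the background 1.75 to 1.79 and 1.61 to 2.6 reads. At the C-type promoters PCDHAC1, PCDHAC2 and PCDHGC3 the control folds were 5.38, 4.74 and 6.08 over backgrounds of 2.35, 4.48 and 3.94. The folds of the constant regions overlapped those of both kinds of promoter. The pileups of the constant regions and the non-C-type promoters overlapped too, at 15 to 36 and 9 to 20 reads in the control list and 17 to 42 and 13 to 30 in the knockdown list. After the last variable exon alpha had 3 control and 7 knockdown peaks in 43 kb, with 2.03 and 2.67 kb covered. Gamma had 4 control and 2 knockdown peaks in 21.3 kb, with 1.52 and 2.44 kb covered. Fewer peaks thus went with longer cover in gamma, where 2 neighbouring control peaks fell within 1 knockdown peak.

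Where peaks less than 12.5 kb apart were joined into domains, the gamma constant region became part of a long one. In the control list it was 26.4 kb long, chr5:141495669-141522112, with 8 peaks that covered 3.74 kb, and it held no member TSS. In the knockdown list it was 53.5 kb long, chr5:141475451-141528954, with 9 peaks that covered 7.42 kb, and it took in the start sites of PCDHGC3, PCDHGC4 and PCDHGC5. Both domains ran past the end of the cluster into DIAPH1, which encodes a formin. The longer domain had 1 more peak, and the PCDHGC5 peak of 227 bp joined PCDHGC3 to the rest of it, since without that peak the gap was over 12.5 kb. This is the domain through which PCDHGC5 entered the choice of the family, so its length is a description. The alpha constant region formed a domain of 27.5 kb with 7 peaks and 2.67 kb covered in the knockdown list alone. Its control peaks formed separate domains of 1.64 and 0.673 kb.

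MYOD was called at 0 of the 53 member promoters in both lists, which allows a share of up to 6.76% by the 95% Wilson interval. Over all protein-coding genes it was called at 6.4% in the control list and 10.8% in the knockdown list. The upper limit of the members lay just above the first share and below the second. MYOD binds E-boxes, of which CAGCTG and CACCTG are the usual forms in muscle genes. Searched on both strands, which read alike for CAGCTG, they occurred in 5 (9.43%) and 4 (7.55%) of the 53 promoters, compared with 17.7% and 20.4% of all promoters of the same length. The general form CANNTG, which includes both, occurred in 60.4% of the members and 63.8% of all.

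The cluster held 1 MYOD peak in each list, at the same place, in the intron between constant exons 1 and 2 of gamma. The control peak, chr5:141495925-141496272, was 348 bp wide with a fold of 8.13, a −log10 p of 19.6 and a pileup of 27, and ranked 1584 of 5814. The knockdown peak, chr5:141495753-141496297, was 545 bp wide with a fold of 6.2, a −log10 p of 13.2 and a pileup of 21, and ranked 3550 of 8457. The MYOD peak was thus wider and of lower fold in the knockdown list, with summits 8 bp apart. The sequence around the control summit, chr5:141496140-141496260 on the plus strand, is shown because it is the only place of MYOD in the cluster, with the E-box CAGCTG in capitals.
MYOD summit: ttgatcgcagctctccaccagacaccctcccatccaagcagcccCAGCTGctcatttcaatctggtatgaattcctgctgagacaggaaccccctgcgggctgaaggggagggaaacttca
This E-box, chr5:141496184-141496189, began 16 bp before the control summit and 8 bp before the knockdown summit. In the control list it fell in the gap of 259 bp between H3K27ac peaks of 428 and 217 bp, with folds of 3.81 and 3.11. In the knockdown list it lay inside 1 H3K27ac peak of 1469 bp, chr5:141495302-141496770, with a fold of 5.13 and a −log10 p of 16.1. The knockdown MYOD peak was covered over its whole 545 bp by that H3K27ac peak, and the control MYOD peak over 172 bp by the left of the pair. The nearest start site was that of PCDHGC5, 7119 bp before the control summit.

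Farther into gamma, between constant exons 2 and 3, the control list had peaks of 229 bp with a fold of 3.7 (−log10 p 10.6) and of 645 bp with a fold of 3.64 (−log10 p 11.2, chr5:141508130-141508774). The knockdown list had 1 peak of 974 bp, chr5:141508112-141509085, with a fold of 3.62 and a −log10 p of 12.8. In alpha the knockdown list alone had a peak of 403 bp before constant exon 1, chr5:140977373-140977775, with a fold of 4.76 and a −log10 p of 11.6.

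The promoters of the family were poor in G and C. The median GC share was 39.3% in the members and 63.7% over all protein-coding promoters, and the median ratio of observed to expected CpG was 0.593 and 0.775. Members with an H3K27ac peak in either list had a median GC share of 44.2%, and members without had 38.7%. That gap came from the 4 C-type genes among the former, since without the C-type genes the medians were 38.8 and 38.5%. TATAAA, on either strand, occurred in 20.8% of the members and 9.71% of all promoters. A pattern of 12 bases within the CTCF motif, searched on both strands, occurred in 1.89% of the members and 5.91% of all. It was not found at any of the 10 members with a peak. The pattern was counted only where all its fixed bases matched. Its end is also the start of the pattern held by 14 of the 16 beta promoters. How many promoters hold a CTCF site therefore cannot be read from these counts.

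Sequence in the windows of the members recurs in the cluster, so reads may be placed at more than 1 site or dropped. Each window was read as words of 50 bases. A word counted as repeated if it occurred again anywhere in the cluster, on either strand. The median share of repeated words was 5.64% in alpha, 7.53% in beta and 0.988% in gamma. In the members with a peak the median was 4.75% (range 0 to 19.4%), and in those without 5.14% (range 0 to 28.2%). The shares of the members with and without a peak overlapped, and gamma, with the fewest called promoters, had the lowest. How multiply mapped reads were treated is not given in the sources used here.

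The surrounding chromosome and like loci gave the setting. Of 30 protein-coding genes with a TSS within 500 kb of the cluster or inside it, 12 had H3K27ac at the promoter in the control list (40%, 24.6 to 57.7%) and 19 in the knockdown list (63.3%, 45.5 to 78.1%). These intervals include the shares of all protein-coding genes, 41.5% in the control and 51.3% in the knockdown list. Called in both lists were PFDN1, ANKHD1, ANKHD1-EIF4EBP3, SRA1, APBB3, SLC35A4, WDR55, HARS1, HARS2, TAF7, DIAPH1 and DELE1. Called in the knockdown list alone were 7 of 30, compared with 10.7% of all protein-coding genes: NDUFA2, IK, ZMAT2, HDAC3, RELL2, ARAP3 and RNF14. Several of these share a promoter, such as HARS1 with HARS2, the histidyl-tRNA synthetases, and HDAC3, a histone deacetylase, with RELL2. In the knockdown list the interval of the members (9.2 to 29.2%) lay below that of their neighbours. Neighbours that share a promoter were counted separately, so their interval is too narrow. In the control list the intervals overlapped.

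Other gene arrays had more called promoters. HOX genes, which pattern the body axis, had H3K27ac at 18 of 39 promoters in the control list (46.2%, 31.6 to 61.4%) and at 20 in the knockdown list (51.3%, 36.2 to 66.1%). Histone genes of chromosome 6 had it at 37 and 43 of 55 (67.3 and 78.2%). The non-clustered protocadherins, which lie outside the cluster, had it at 3 of 12 in both lists (25%, 8.89 to 53.2%), namely PCDH7, PCDH15 and PCDH18. PCDH1 and PCDH12, without a peak, lie within 500 kb of the cluster and were also counted among its neighbours. The cover was 724 and 407 bp at PCDH7, 1136 and 1547 bp at PCDH15 and 432 and 1282 bp at PCDH18 in control and knockdown. None of the 12 had MYOD in either list.

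**Figure D4:**
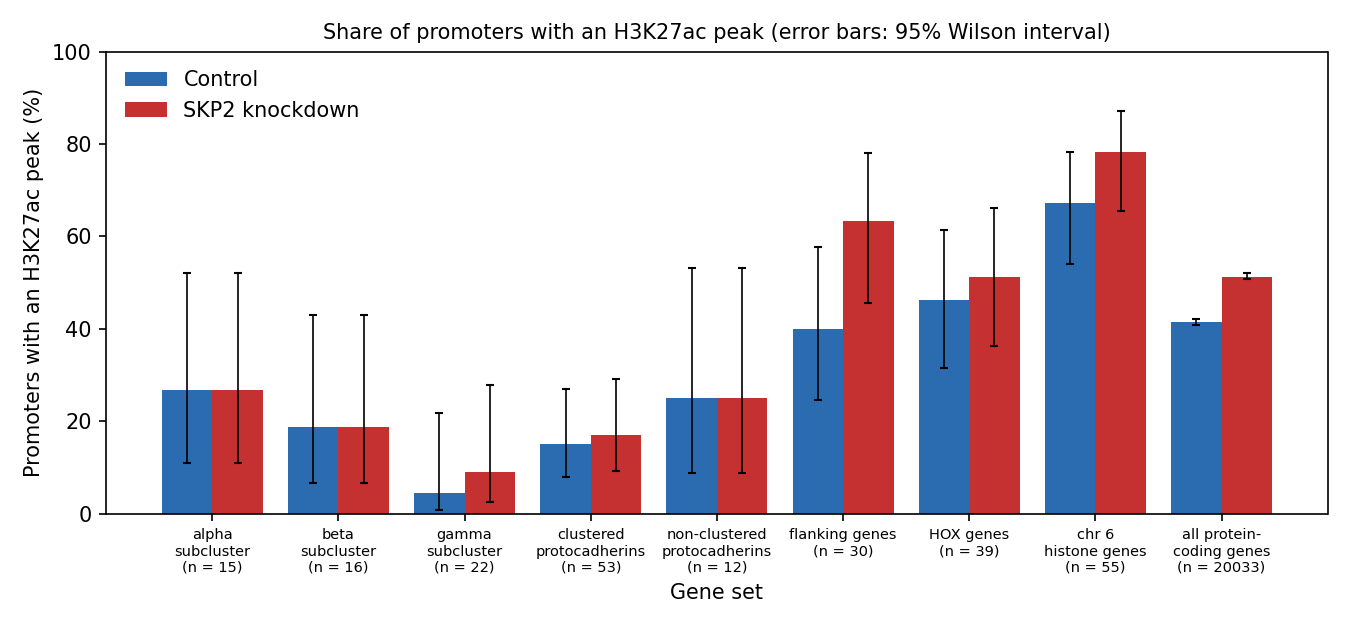
Share of promoters with an H3K27ac peak in percent (vertical axis) for the 3 subclusters, all 53 members and 5 comparison sets (horizontal axis, number of genes in brackets), control in blue and SKP2 knockdown in red; error bars are 95% Wilson intervals and cover counting error only. The members stand at 15.1 and 17%, all protein-coding genes at 41.5 and 51.3%. PCDH1 and PCDH12 are in both the flanking and the non-clustered set.

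Genes known to act on protocadherin promoters mostly had H3K27ac at their own. Over all protein-coding genes the shares were 41.5% in the control list, 51.3% in the knockdown list and 10.7% in the knockdown list alone. The median difference in cover over all promoters called in both lists was 385 bp. Of 11 genes of chromosome architecture, 10 had H3K27ac at the promoter in the control list (62.3 to 98.4%) and 11 in the knockdown list (74.1 to 100%). Both intervals lay above the shares of all genes. PDS5B, a cohesin regulator, was called in the knockdown list alone with 185 bp covered. Among these 11 genes the cover was longer in the knockdown by the most at CTCF (376 bp in the control, 1496 bp in the knockdown). Next came the cover at WAPL, which releases cohesin (449 and 1416 bp), and NIPBL, which loads it (526 and 1307 bp). The cover was shorter in the knockdown list at SMC1A, a cohesin subunit (1010 and 804 bp). Of 12 silencing genes 8 had a peak in both lists (66.7%, 39.1 to 86.2%), an interval that includes the share of all genes in each list. The largest differences there were at DNMT1, the maintenance DNA methyltransferase (684 and 1262 bp), LRIF1, a partner of SMCHD1 (575 and 1122 bp), and SMCHD1 itself, a repressor of the clustered protocadherins (965 and 1486 bp). Of 12 genes of signalling partners and processing 7 were called in the control list (32 to 80.7%) and 9 in the knockdown list (46.8 to 91.1%). These intervals also include the shares of all genes. Called in the knockdown list alone were ABI1 (871 bp) and CYFIP1 (294 bp), both of the WAVE actin regulatory complex. PTK2, a kinase that clustered protocadherins inhibit, was covered over 767 and 1557 bp.

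The labelled cell type was checked against markers. Over all protein-coding genes H3K27ac was called at 41.5% of promoters in the control and 51.3% in the knockdown list, and MYOD at 6.4% and 10.8%. Of 8 muscle lineage genes 6 had H3K27ac at the promoter in the control list and 7 in the knockdown list, with MYOD at 5 in both. H3K27ac cover differed most at CHRND (792 bp in the control, 1756 bp in the knockdown), MYOG, a muscle regulatory factor (434 and 1271 bp), and MYOD1 (514 and 1349 bp). Cover was shorter in the knockdown list at CDH15 (680 and 653 bp). ACTC1 was called in the knockdown list alone, and DES had no peak. Of 10 neuron markers 0 had H3K27ac in the control list and 2, MAP2 and ELAVL3, in the knockdown list. Over all protein-coding genes 10.7% were called in the knockdown list alone. MYOD was called at 1 of the 10 neuron markers, GRIN1, in both lists (440 and 388 bp covered). Of 6 markers of glia and Schwann cells 0 had H3K27ac or MYOD in either list. The levels of SKP2 cannot be checked from peak lists.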

How the data were processed

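The 4 deposited peak lists, 1 per library, were analysed. Per the study's methods and processing notes, the authors aligned reads with BWA 0.7.17 to GRCh38 (with the dm3 genome for a Drosophila spike-in), called narrow peaks with MACS3 against input, keeping duplicates, and removed regions of the ENCODE exclusion list. Libraries were called separately. The deposited columns hold a fold (a ratio over local background), −log10 p and −log10 q, and a score that is 10 times the −log10 p. Whether the spike-in scaled the calls is not given in the sources used here. The stated p corresponds to a −log10 p of 5, but 2.41 to 4.13% of each list lies under it. The lists held 25356 (control) and 38457 (knockdown) H3K27ac peaks and 5814 and 8457 MYOD peaks.

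Promoters were the TSS of the canonical GENCODE 44 transcript with 2 kb on each side, and peaks were shared at 1 bp of overlap. Pileup and background at each summit were recovered from the fold and −log10 p (100% within a tolerance of 0.001), by a script tested on simulated data. Python 3.11.15, NumPy 2.4.6 and SciPy 1.17.1 were used. Wilson intervals cover counting error only. No test was possible with 1 library per group. The members and lists were chosen with earlier results of these data known. Members with a promoter peak are all named. The C-type genes and the 12 highest-scoring H3K27ac peaks per list are described with their fold and −log10 p. Of other lists all flanking genes with a peak and up to 3 genes with the largest differences are given. The members without a peak whose sequence is printed were picked after their values were seen. Alternatives were a −log10 p of at least 5 or 10, lists shortened to equal length, the summit in the window, 500 bp windows, every protein-coding TSS and a reciprocal overlap of 50%. The RefSeq promoter table held 47 of the 53 members, 46 with the same sequence.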

Additional observations from a re-analysis of the deposited data

How the results depend on the processing

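No paired analysis was possible because each group held 1 library, and no replicate could be left out. Of 88 recomputed counts, covers and differences 76 stayed within 1.5 times the value given, 10 moved further and 2 reversed. Of 30 recomputed differences in promoter cover at members with a peak, 21 stayed within 1.5 times the value, 9 moved further and 0 reversed. With peaks of a −log10 p of at least 10, H3K27ac promoters in the knockdown list numbered 5 and those in the knockdown list alone 0, the control peaks covered 2.1 kb of alpha and the knockdown peaks 1.95 kb (difference -0.156 kb), and 2 knockdown peaks of the cluster lacked a counterpart. With lists of equal length, promoters in the knockdown list alone numbered 0, the knockdown list covered 2.52 kb of alpha, a difference from the control of -0.975 kb, and the difference over the whole cluster was 1.08 kb. Under that choice also 2 knockdown peaks of the cluster lacked a counterpart. With a reciprocal overlap of 50%, 6 control peaks lacked one. PCDHA11 and PCDHGC5 lost their call under the stricter threshold and with lists of equal length, and PCDHA4 was absent from the control list at a −log10 p of at least 5. PCDHAC2 stayed in the control list alone, and MYOD at 0 member promoters, under all alternatives. Peak lists do not show signal under the calling threshold, so an uncalled promoter is not shown to lack H3K27ac, and depth could not be compared between the libraries. The causes of these changes were not tested.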
